A study of Sus scrofa with 5 samples.

Results

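The hypoblast is the cell layer that forms beneath the epiblast of the blastocyst and spreads to line the cavity, where it becomes the visceral and parietal endoderm of the yolk sac. GATA factors, SOX17 and FOXA2 are early transcription factors of this layer, and HNF4A follows as visceral endoderm matures into an epithelium that secretes plasma proteins and takes up nutrients. Described here are 9 genes known for these steps, of 30029 genes counted in single cells of pig blastoids. They are the transcription factors *SOX17*, *FOXA2* and *HNF4A*, the secreted carrier proteins *AFP*, *TTR* and *RBP4*, and the uptake genes *CUBN*, *AMN* and *DAB2*. The genes were chosen by name. Several also mark other cells, since *SOX17* is known from endothelium and germ cells, *FOXA2* from the notochord and floor plate, *CUBN* and *AMN* from kidney and gut, and *DAB2* from many epithelial and mesenchymal cells.

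Blastoids are hollow structures that embryonic stem cells form in culture and that resemble a blastocyst. Single-cell RNA-seq (scRNA-seq) was made on 2 libraries of day 6 porcine blastoids, grown in iBlastoid medium from porcine embryonic stem cells (pESCs), and bulk RNA-seq on 3 libraries of pESCs kept in 4FIXY medium. The study asked whether blastoids contain epiblast-, trophectoderm- and hypoblast-like cells, and used *GATA6* and *GATA4* as hypoblast markers. The blastoids were hand-picked for a visible cavity and inner compartment, and how many were pooled per library is not given in the sources used here. By the methods, the pESCs came from parthenogenetic blastocysts and were grown on mouse feeder cells. The labels do not say whether the 2 blastoid libraries come from separate cultures, so p-values measure the spread between these 2 samples only, which may be technical.

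A cell was a barcode above a set number of UMIs (unique molecular identifiers, each standing for a captured RNA molecule), which left 7369 cells in library 1 and 8175 in library 2. The median cell had 29728 and 27588 UMIs, and 9 barcodes occurred among the cells of both libraries. *GATA6* was detected in 20.5% and 16.3% of the cells and *GATA4* in 11.0% and 6.19%. Levels are given as counts per 1e+06 UMIs (CPM) of all cells in a group. Barcodes of 10 to 100 UMIs were taken as empty droplets and show the share of each RNA among the RNA that floated free. This is not an amount per droplet, so a level within that of empty droplets does not show that UMIs in cells were free RNA. Intervals are exact binomial (Clopper-Pearson) 95% intervals and cover counting error only.

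The transcription factors were detected in few cells. *SOX17*, a SOX factor of early endoderm on chromosome 4 (76854218 to 76857143, minus strand, Sscrofa11.1, 2 exons), had a UMI in 36 cells of library 1 (0.489%, interval 0.342 to 0.676) and 38 cells of library 2 (0.465%, 0.329 to 0.637). Its highest cells held 19 and 9 UMIs. *FOXA2*, a pioneer factor of endoderm on chromosome 17 (29997397 to 30001704, minus strand), was found in 19 cells (0.258%) and 12 cells (0.147%), with at most 5 and 2 UMIs in a cell. *HNF4A*, the nuclear receptor that drives many liver and visceral endoderm genes, lies on chromosome 17 from 46783772 to 46847505 (plus strand, 10 exons). It was found in 74 cells (1.00%) and 73 cells (0.893%), with at most 12 and 11 UMIs. The shares of *SOX17* and *HNF4A* thus differed little between the libraries, and those of *FOXA2* had overlapping intervals of 0.155 to 0.402 and 0.0759 to 0.256. Empty droplets held 1 UMI of *SOX17* in each library and 0 of *FOXA2* and *HNF4A*, among 1639823 and 2344239 UMIs in all.

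The secreted carriers were uneven between cells and were found in a larger share of cells in library 2, with intervals that do not overlap. *AFP*, the main plasma protein of yolk sac and fetal liver, lies on chromosome 8 from 69677690 to 69698864 (plus strand, 15 exons). It was found in 20 cells of library 1 (0.271%, interval 0.166 to 0.419) and 83 cells of library 2 (1.02%, 0.809 to 1.26), at 0.315 and 3.85 CPM. In each library the 5 highest cells held 81.2% of all *AFP* UMIs, and the highest single cells held 44 and 318 UMIs. *TTR*, which carries thyroid hormone and binds RBP4 in plasma (chromosome 6, 115496338 to 115503974, plus strand, 4 exons), was found in 42 cells (0.570%, 0.411 to 0.770) and 80 cells (0.979%, 0.777 to 1.22), at 0.374 and 0.992 CPM. *RBP4*, the retinol carrier (chromosome 14, 105037360 to 105044552, minus strand, 6 exons), was found in 312 cells (4.23%, 3.79 to 4.72) and 464 cells (5.68%, 5.18 to 6.20), at 2.35 and 3.39 CPM. Empty droplets held 2.44 and 4.69 CPM of *AFP* (4 and 11 UMIs), 1.22 and 2.56 CPM of *TTR* (2 and 6 UMIs) and 3.66 and 2.56 CPM of *RBP4* (6 in each). By exact Poisson 95% intervals of these few UMIs, the level over all cells was within that of empty droplets for the 3 genes in both libraries, except *AFP* in library 1, which was below it.

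In cells gated on the fibroblast collagen gene *COL3A1* (at least 20 UMIs), taken as a type that should lack plasma proteins, *AFP* had a UMI in 0.409% and 0.302% of the cells and *RBP4* in 2.66% and 2.11%, at a median of 25334 and 20582 UMIs. The share of *AFP* over all cells of library 1 is not above that value, which rests on 2 cells, while 0 of 400 cells gated on *PAX6* and 0 of 257 gated on *CRABP1* in that library had *AFP*. The share of *AFP* in library 2 and those of *RBP4* in both libraries lie above those of the *COL3A1*-gated cells. Among the gates, the largest share with *RBP4* was in cells gated on the pluripotency factor *POU5F1* (at least 5 UMIs), at 17.1% and 18.1%. *AFP* was in 0.549% and 2.73% of these cells, at a median of 43438 and 38778 UMIs. In library 2 *AFP* was in 1.05%, 0.969% and 1.06% of cells gated on *PAX6*, *CRABP1* and *MYL7*. *RBP4* was in 3.50%, 4.67% and 4.94% of these gates in library 1 and in 3.99%, 3.87% and 4.59% in library 2. With each cell thinned to 9000 UMIs, *RBP4* was left in 0.9499% and 1.79% of all cells and in 0% and 0.302% of the *COL3A1*-gated cells. Cells with *RBP4* were deeper than cells without it, at a median of 44590 against 29359 UMIs in library 1 and 38821 against 27107 in library 2.

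The uptake genes did not share one pattern. *CUBN* encodes cubilin, a large receptor for vitamin and protein uptake, and spans chromosome 10 from 43102931 to 43414692 (minus strand, 68 exons). It was found in 443 cells (6.01%) and 377 cells (4.61%), at 2.197 and 1.694 CPM against 1.83 and 0.427 CPM in empty droplets (3 UMIs and 1 UMI). *AMN* encodes amnionless, the membrane anchor that cubilin needs, and lies on an unplaced scaffold (1630488 to 1639321). It was found in 326 cells (4.42%) and 356 cells (4.35%), at 1.36 and 1.43 CPM against 2.44 and 2.13 CPM in empty droplets (4 and 5 UMIs), and no cell had more than 4 UMIs. For *CUBN* and *AMN* the level over all cells was within the interval of that in empty droplets. *DAB2*, an adaptor of clathrin-mediated uptake on chromosome 16 (24590638 to 24776937, minus strand), was the only member found in most cells, in 4528 (61.4%) and 4838 (59.2%). Its level was 58.98 and 59.97 CPM, above the 20.1 and 23.0 CPM of empty droplets (intervals up to 28.3 and 30.1).

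A minority of cells held UMIs of more than 1 member. Leaving out *DAB2*, 1157 cells of library 1 and 1290 of library 2 had a UMI of at least 1 of the other 8 genes, which is 15.7% of the cells over both libraries. At least 2 of the 8 genes were found in 99 and 139 cells, and at least 3 in 12 and 42. With at least 2 UMIs asked of each gene, at least 2 of the 8 were found in 7 and 44 cells. Full co-expression of the set was not seen, and no cell had more than 5 of the 8 genes.

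*RBP4* separated a small group of cells. In each library a few cells had 20 or more *RBP4* UMIs, a limit chosen after the values were seen, and the next lower cells had 11 UMIs in library 1 and 5 in library 2. The 3 cells of library 1 had 149, 27 and 20 *RBP4* UMIs, and the 6 cells of library 2 had 103, 87, 49, 40, 25 and 20. In the same order, *AFP* had 14, 44 and 0 UMIs in library 1 and 318, 299, 110, 40, 62 and 0 in library 2. Of the 9 cells 7 thus held *AFP*, while the cell with the fewest *RBP4* UMIs in each library held none. *HNF4A* was present in all 9, at 6, 12 and 3 UMIs in library 1 and 5, 1, 3, 5, 11 and 4 in library 2. *TTR* was present in 7, at 36, 7 and 0 UMIs and at 10, 11, 71, 2, 8 and 0. Genes of mature visceral endoderm and liver thus met in single cells of this group.

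Early and uptake genes were found in fewer of these 9 cells than *HNF4A*, *AFP* and *TTR*. *FOXA2* was found in 3 of them and *SOX17* in 1, which had 12 *SOX17* UMIs and lacked *AFP* and *TTR*. *CUBN* had 1 UMI in 1 cell, *AMN* was at 0 in all 9, and *DAB2* had 2 to 4 UMIs in 6. *GATA6* was present in 6 cells with at most 5 UMIs and *GATA4* in 5. Over all cells of libraries 1 and 2, *FOXA2* was in 0.258% and 0.147%, *SOX17* in 0.489% and 0.465%, *GATA6* in 20.5% and 16.3% and *GATA4* in 11.0% and 6.19%. *CUBN* was in 6.01% and 4.61% of all cells, *AMN* in 4.42% and 4.35% and *DAB2* in 61.4% and 59.2%. Other genes of plasma proteins accompanied the members. *APOA1*, the main protein of high density lipoprotein, had between 104 and 1385 UMIs in every one of the 9 cells, and *TF*, the iron carrier transferrin, had between 2 and 84. *SERPINA1*, the protease inhibitor alpha-1 antitrypsin, was present in 8 cells with up to 737 UMIs. The fibrinogen chain *FGG* and the carrier *AHSG* were each present in 5. *POU5F1* was found in 1 of the 9 cells, with 1 UMI. Of other genes outside endoderm, *GATA3* was found in 5 of the 9 cells, *MYL7* in 4, *COL3A1* in 2 and *SOX2* in 1. The automatic limit of Scrublet, which scores likely doublets, did not work here, so the 434 and 535 highest scores were taken, at an assumed rate. These included 2 of the 3 cells of library 1 and 0 of the 6 of library 2. These 9 cells held 32.89% and 36.04% of all *RBP4* UMIs and 72.5% and 81.2% of all *AFP* UMIs of their libraries.

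**Figure D1:**
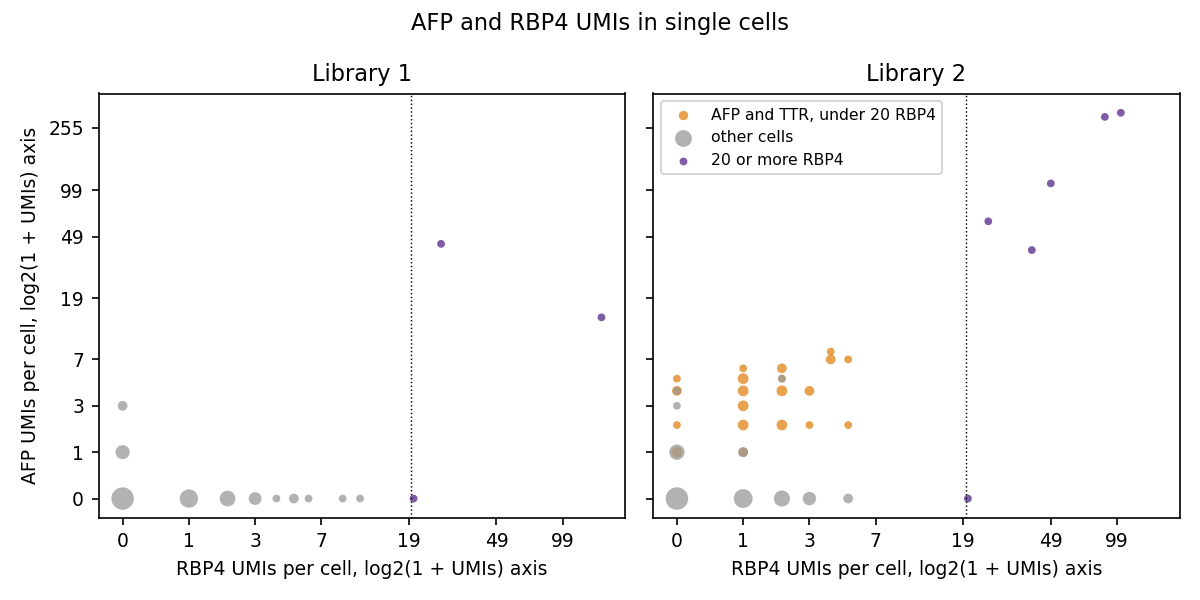
UMIs of *RBP4* (horizontal) and *AFP* (vertical) in every cell of each library, both on log2(1 + UMIs) axes, with larger points for more cells at the same position and a dotted line just under 20 *RBP4* UMIs. The 3 and 6 cells right of the line hold 0 to 318 *AFP* UMIs, and library 2 has a further set of cells with low *AFP* and *TTR* counts (orange) that library 1 lacks.

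Library 2 also held 39 cells with both *AFP* and *TTR* and under 20 *RBP4* UMIs, and library 1 held 0 such cells. They had 1 to 8 UMIs of *AFP* and 1 to 8 of *TTR*, and *HNF4A* was at 0 in all 39. Every 1 of them had *POU5F1*, the pluripotency factor, and 94.9% had *GATA3*, a trophectoderm factor, against 48.1% and 79.7% of the library 2 cells with neither *AFP* nor *TTR*. Their level of *POU5F1* was 187 CPM against 95.3 CPM in those cells, at a median of 40623 against 27484 UMIs. *SERPINA1* stood at 47.3 CPM in the 39 cells against 0.266 CPM in those cells, and *TF* at 25.9 against 0.123 CPM. These cells shared secreted genes with the *RBP4*-high cells of the same library at lower levels, with *AFP* at 71.6 against 3759 CPM. At such levels the absence of *HNF4A* UMIs does not show that the gene was off. None of the 39 was among the highest doublet scores. Whether the free RNA of library 2 takes part in this set was not tested.

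The stretches of 200 bases before the annotated starts of the members that met in the 9 cells are given here (Sscrofa11.1, from the RefSeq annotation and genome), as the regulatory sequence next to genes detected together. Searched on both strands was GTTAAT, which is the core of sites for HNF1 proteins. The search for HNF4 sites used the letters CAAAGTCCA, and that for sites of FOXA proteins used TGTTTAC. For the GATA family the letters were AGATAA, and for the box near many starts they were TATAAA. Matches are in capitals. Each line runs 5′ to 3′ on the strand of the gene.
HNF4A, chr17:46783572-46783771, plus strand: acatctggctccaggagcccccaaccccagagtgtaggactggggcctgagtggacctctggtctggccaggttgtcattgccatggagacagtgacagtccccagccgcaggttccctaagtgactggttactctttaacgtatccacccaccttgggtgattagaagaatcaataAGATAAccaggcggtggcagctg
AFP, chr8:69677490-69677689, plus strand: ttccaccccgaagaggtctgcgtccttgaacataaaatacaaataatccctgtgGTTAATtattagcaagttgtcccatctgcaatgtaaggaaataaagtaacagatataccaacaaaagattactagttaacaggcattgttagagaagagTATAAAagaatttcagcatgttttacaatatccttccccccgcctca
TTR, chr6:115496138-115496337, plus strand: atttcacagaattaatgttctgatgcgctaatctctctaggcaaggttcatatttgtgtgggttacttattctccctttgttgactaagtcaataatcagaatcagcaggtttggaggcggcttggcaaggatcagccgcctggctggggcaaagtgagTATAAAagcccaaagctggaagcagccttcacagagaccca
RBP4, chr14:105044553-105044752, minus strand: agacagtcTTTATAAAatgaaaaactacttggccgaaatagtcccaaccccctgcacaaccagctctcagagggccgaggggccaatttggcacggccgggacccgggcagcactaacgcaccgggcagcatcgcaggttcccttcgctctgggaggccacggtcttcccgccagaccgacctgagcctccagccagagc

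*AFP* held GTTAAT at positions -146 to -141 from its start and TATAAA at -47 to -42, and *TTR* held TATAAA at -41 to -36. In *RBP4* the TATAAA match at -190 to -185 overlaps a match on the other strand. *HNF4A* held AGATAA at -23 to -18, and *CUBN* and *DAB2* also held AGATAA, at -119 to -114 and -151 to -146. No motif of the 5 was common to the 4 printed stretches. Of 20668 annotated starts, 4.68% held the HNF1 letters in this window, 0.256% those for HNF4, 1.79% those for FOXA, 6.59% those for the GATA family and 8.22% the TATA box. A match describes the sequence and is not a shown binding site.

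Pairs of members were next set beside the number of cells that the product of the 2 single shares gives. Of 36 pairs, 22 lay above this product in both libraries, and the product takes no account of the depth of cells. With cells thinned to 9000 UMIs 14 pairs did so, and with 2 UMIs asked of each gene 10 did. *AFP* and *TTR* were found together in 2 and 44 cells, where the products were 0.114 and 0.812. *AFP* and *RBP4* were found together in 2 and 40 cells (products 0.847 and 4.71), and *TTR* and *RBP4* in 6 and 38 (1.78 and 4.54). By the difference in number of cells, the secreted carriers were thus the pairs furthest above their products in library 2. *HNF4A* and *RBP4* met in 7 and 9 cells (3.13 and 4.14). Without the 9 *RBP4*-high cells, which was tried after seeing the data, 14 of the 36 pairs lay above the product in both libraries.

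The 2 partners of the cubilin receptor, *CUBN* and *AMN*, were found together in 26 and 18 cells, where the products were 19.6 and 16.4, and in 0 cells when 2 UMIs of each were asked. *CUBN* and *DAB2* shared 314 and 244 cells (272 and 223). *RBP4* and *DAB2* lay below the product in both libraries, with 162 and 232 cells (192 and 275). The early factors *SOX17* and *FOXA2* met in 2 cells of library 1 and 0 of library 2. One of these 2 cells had 5 *SOX17*, 2 *FOXA2*, 8 *HNF4A*, 8 *GATA6*, 7 *GATA4* and 73 *APOA1* UMIs, and the other had 1 *SOX17*, 5 *FOXA2*, 1 *HNF4A*, 19 *GATA6* and 4 *GATA4* UMIs. Both had 0 UMIs of *AFP*, *TTR* and *RBP4*, and the first was among the highest doublet scores, described above. *FOXA2* and *HNF4A* met in 4 cells and 1 cell.

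**Figure D2:**
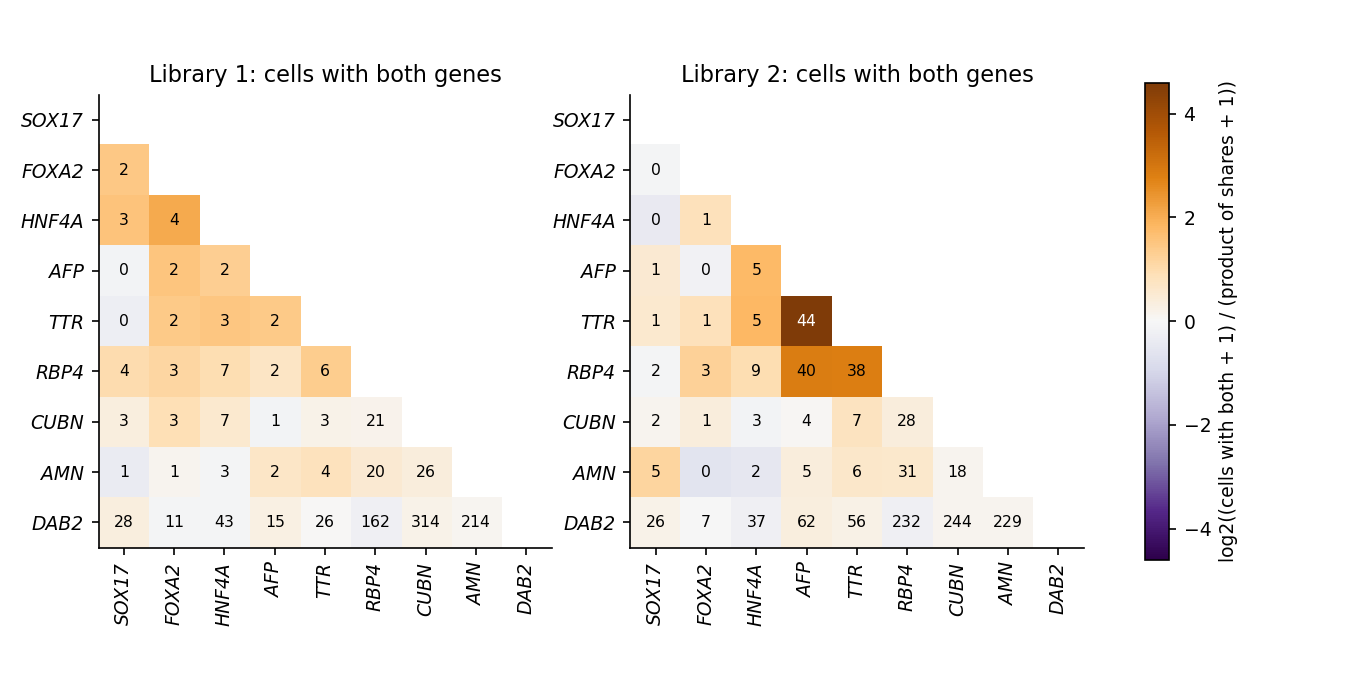
Number of cells with at least 1 UMI of both genes for each of the 36 pairs of members in library 1 (left) and library 2 (right), coloured by log2 of the number plus 1 over the product of the single shares plus 1. *AFP* with *TTR*, in 44 cells of library 2, has the darkest square, and *RBP4* with *DAB2* is below its product in both libraries.

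Cells with higher counts of the transcription factors fell into unlike groups. At least 2 *SOX17* UMIs were found in 15 cells of library 1 and 9 of library 2. *SOST*, a secreted WNT antagonist, was present in 5 and 4 of them, and the cell with most *SOX17* (19 UMIs) had 22 *SOST* UMIs and no *GATA6* or *GATA4*. In 2 cells of library 1, with 9 and 8 *SOX17* UMIs, the endothelial genes *CD93* (24 and 12 UMIs), *CDH5* (9 and 1) and *SOX18* (28 and 2) were present, and none of the 9 cells of library 2 had *CD93*. *GATA6* was present in 5 of the 15 and 2 of the 9 cells. *FOXA2* reached 2 UMIs in 5 cells and 1 cell, of which 3 in library 1 had both *GATA6* and *GATA4* and another had 23 UMIs of *THSD7B* and neither GATA gene. Of those 3 cells 2 were among the highest doublet scores. Outside the *RBP4*-high cells, 20 and 12 cells had at least 2 *HNF4A* UMIs, and *AFP*, *TTR* and *SERPINA1* were at 0 in all of them. In these cells, of a median of 38332 and 30968 UMIs, *POU5F1* was present in 11 and 7, *GATA3* in 20 and 8 and *APOA1* in 18 and 9. Over all 7369 and 8175 cells, *POU5F1* was present in 2921 and 3958, *GATA3* in 6113 and 6525 and *APOA1* in 5739 and 6155. These genes were named here after their values were seen.

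The next comparison asks whether the members are higher in cells marked by *GATA6*. Cells with at least 3 *GATA6* and under 20 *ISG15* UMIs formed the GATA6 gate, with 741 cells in library 1 (10.1%) and 539 in library 2 (6.59%). Cells with at least 20 *ISG15* UMIs, an interferon-induced gene, and under 3 *GATA6* UMIs formed the ISG15 gate, with 393 and 420 cells. The 6206 and 7199 cells in neither gate were the common reference of both comparisons, and 29 and 17 cells in both gates were left out. For each library and gate the UMIs were added up, and the test on these 6 sums was the quasi-likelihood test of edgeR, adjusted by Benjamini-Hochberg over 16707 genes. The median cell had 27455 and 24157 UMIs in the GATA6 gate, 32841 and 31208 in the ISG15 gate and 29782.5 and 27603 in neither. *GATA4* was present in 63.4% and 48.2% of the GATA6-gated cells and in 5.08% and 3.18% of the reference. Of the 9 members 8 had enough counts to be tested, and *FOXA2*, with 40 UMIs in the 6 sums, had not.

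In the GATA6 gate *DAB2*, *RBP4* and *CUBN* rose and no member fell, while 37.9% of all tested genes were called in this comparison, 19.9% as higher and 18.0% as lower. The median log2 fold change of the 8 members was 1.09, and that of all tested genes was -0.01. The median of the members was -0.19 without the 9 *RBP4*-high cells, an alternative chosen after seeing the data. *DAB2* had 113 and 107 CPM in the gate and 51.5 and 56.0 CPM in the reference. Both gated sums lay above both reference sums, and the log2 fold change was 1.05 ± 0.06 (SE, 2 libraries a group, edgeR adjusted p = 7.22e-06). *CUBN* had 4.80 and 3.93 CPM in the gate against 1.91 and 1.52 CPM, again without overlap, and its log2 fold change was 1.38 ± 0.21 (adjusted p = 0.00131). *RBP4* had 7.22 and 10.5 CPM against 1.82 and 3.07 CPM, a log2 fold change of 1.85 ± 0.27 (adjusted p = 0.00104). Here and below SE is the fold change divided by the root of the F statistic.

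The rise of *RBP4* rested on the cells with 20 or more UMIs described above that lay in the gate, while others of them lay in the reference. Single cells held 149 of the 197 *RBP4* UMIs of the gate in library 1 and 87 of the 174 in library 2. Without the 9 cells, the log2 fold change of *RBP4* was -0.17 ± 0.25 (adjusted p = 0.630), while *DAB2* had 1.06 ± 0.06 and *CUBN* 1.38 ± 0.21 and both were still called. With stricter gates of at least 5 *GATA6* and 50 *ISG15* UMIs, *RBP4* stood at -0.19. The share of cells with an *RBP4* UMI was 4.18% and 3.71% in the gate and 4.30% and 5.97% in the reference, so the gate was not richer in *RBP4* cells. *CUBN*, by contrast, had a UMI in 13.2% of the 741 gated cells and 5.22% of the reference in library 1, and in 10.2% and 4.18% in library 2. After thinning these shares were 5.13% and 1.72% in library 1 and 3.53% and 1.47% in library 2. *DAB2* after thinning was present in 56.7% and 53.1% of the gated cells and in 30.0% and 32.3% of the reference.

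The other members did not pass the test in the main fit, which has no library block. *AFP* had 0.550 and 21.6 CPM in the GATA6 gate and 0.306 and 2.86 CPM in the reference (log2 fold change 2.73 ± 1.26, adjusted p = 0.126). A single cell held 299 of the 357 *AFP* UMIs of the gate in library 2, and without it the level was 3.51 CPM. *TTR* had 1.32 and 1.51 CPM against 0.277 and 1.01 CPM (1.13 ± 0.60, adjusted p = 0.178), and all 36 *TTR* UMIs of the gate in library 1 came from 1 cell. With the library as a block in edgeR, since sums of 1 library share its preparation, *AFP* (2.48, adjusted p = 0.000364) and *TTR* (1.39, adjusted p = 0.0154) passed. In that fit 7891 of all 16707 tested genes were called in this gate. Without the 9 *RBP4*-high cells, and without the block, *AFP* stood at 0.14 and *TTR* at -0.59. *HNF4A* had 0.696 and 0.665 CPM against 0.559 and 0.414 CPM (0.51 ± 0.37, adjusted p = 0.312). Like the called members, *TTR* and *HNF4A* thus had both gated sums above both reference sums. *SOX17* had 0.476 and 0.181 CPM against 0.611 and 0.289 CPM (-0.30 ± 0.61, adjusted p = 0.743), and *AMN* 0.806 and 1.15 CPM against 1.40 and 1.47 CPM (-0.58 ± 0.26, adjusted p = 0.123). *FOXA2* had 8 UMIs in 3 gated cells of library 1 and 1 UMI in 1 cell of library 2.

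**Figure D3:**
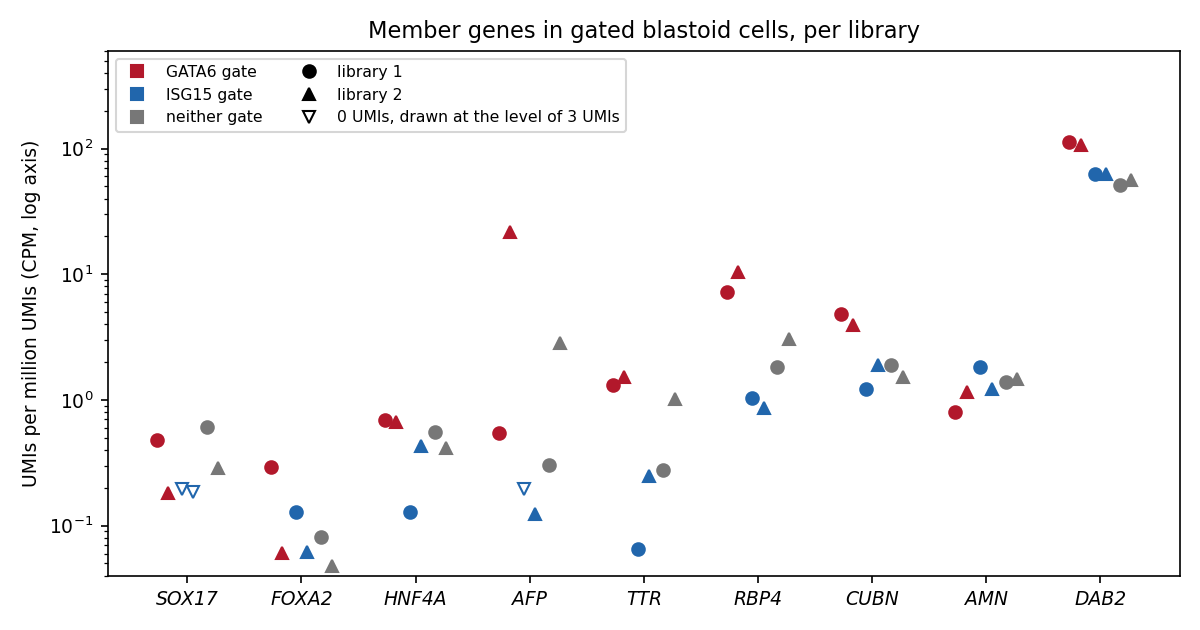
CPM (log axis) of the 9 members in cells of the GATA6 gate (red), the ISG15 gate (blue) and neither gate (grey), with a circle for library 1, a triangle for library 2 and an open triangle at the level of 3 UMIs where a sum held 0 UMIs. *DAB2*, *RBP4* and *CUBN* have both red points above both grey points, as do *TTR* and *HNF4A*, which were not called in the main fit. *SOX17* has 0 UMIs in the ISG15 gate of both libraries.

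Markers of other cells also rose in the GATA6 gate, and their part in the rise of *DAB2* and *CUBN* was not tested. All 9 of 9 cardiac genes rose, such as *MYL7*, an atrial myosin light chain, at 620 and 513 CPM against 31.5 and 23.9 CPM, and the list summed to 2440 and 1817 CPM against 194 and 140. All 7 of 7 fibroblast genes rose, such as *COL3A1* at 815 and 807 CPM against 41.9 and 23.1 CPM, and the list summed to 2473 and 2517 CPM against 131 and 80.9. Of 5 tested endothelium genes 4 rose, such as *TEK* at 52.1 and 48.0 CPM against 1.97 and 1.15 CPM. The endothelium list summed to 75.2 and 71.3 CPM against 11.2 and 8.91. No gene of these 3 lists was at 0 in the gate of library 1, and *CLDN5* was at 0 in library 2. Of 5 tested epicardium and renal genes 3 rose and *PAX2* fell, and *CHRD*, from the axial mesoderm list, rose. Of 6 trophectoderm genes *CDX2* rose and 4 fell, of 4 epiblast genes *SOX2* fell, and of 7 tested interferon genes *IFIT1* rose and 4 fell. Of the gated cells 16.3% and 12.6% were among the highest doublet scores, and of the reference 4.40% and 5.79%. The gate set by *GATA6* therefore held many cells with markers of cardiac and fibroblast cells. A *COL3A1* or *MYL7* UMI was present in 92.8% and 82.6% of its cells against 40.4% and 27.1% of the reference. The name hypoblast is not used for the gate here. The paper's hypoblast-like cells are clusters and not this gate. Besides *GATA6* and *GATA4*, the paper gave *NID2*, *COL4A1*, staining of inner cells and a comparison with embryo cells as evidence for them.

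Other endoderm genes, from lists of known markers, moved in both directions in the same gate. Of 6 tested transcription factors other than *GATA6*, *GATA4*, *EOMES* and *LHX1* rose, *FOXA1* fell and 2 did not pass, and *SOX7* and *HHEX* had too few counts. *EOMES*, a T-box factor of endoderm and mesoderm, had 9.09 and 7.19 CPM against 2.37 and 2.59 CPM, and *FOXA1*, a relative of *FOXA2*, had 4.18 and 3.99 CPM against 9.28 and 8.58 CPM. Of 9 tested secreted proteins *TF*, *ALB* and *APOA2* rose and *APOC3* fell, while *APOA1*, at 140 and 229 CPM against 188 and 187 CPM, did not pass (edgeR adjusted p = 0.981). These calls rested in part on the 9 *RBP4*-high cells, which carry *TF*, *APOA2* and *APOA1*. Without them 7 secreted proteins were tested, *ALB* rose, *APOC3* and *APOA1* (-0.55 ± 0.05, edgeR adjusted p = 5.41e-05) fell, *TF* stood at 2.08 ± 0.72 (adjusted p = 0.0531), and *APOA2* had too few counts. Of 9 matrix genes 8 rose, among them *COL4A1* and *NID2*, which the paper names for the hypoblast. Another was *SPARC*, at 243 and 253 CPM against 37.6 and 34.4 CPM, a gene that fibroblasts also make. Of 5 tested uptake and membrane genes, *FOLR1* and *PDGFRA* rose and *CLDN6* fell, and of 3 tested genes of the anterior visceral endoderm *FST* rose and *OTX2* fell. The median log2 fold changes were 0.53 for the transcription factors, 1.46 for the secreted proteins (0.73 without the 9 cells) and 1.504 for the matrix genes.

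The gate was also split by cells gated on *COL3A1* (at least 20 UMIs) or *MYL7* (at least 5 UMIs), which made up 72.2% and 62.9% of it. In these 535 and 339 cells *DAB2* had 119 and 132 CPM and *CUBN* 5.45 and 5.05 CPM, and in the remaining 206 and 200 cells *DAB2* had 96.1 and 77.2 CPM and *CUBN* 3.13 and 2.55 CPM. Both genes were above the reference of 56.0 and 1.91 CPM at most on both sides of the split, but 74.3% and 53.0% of the remaining cells still had a *COL3A1* or *MYL7* UMI. *RBP4* had 1.63 and 0.879 CPM in the *COL3A1*- or *MYL7*-gated cells and 21.5 and 22.3 CPM in the rest. The latter values came mostly from *RBP4*-high cells, and the 205 and 197 remaining cells with under 20 *RBP4* UMIs had 2.10 and 2.60 CPM of *RBP4*, 0 and 2.19 CPM of *AFP* and 1.05 and 0 CPM of *HNF4A*. Any of *SOX17*, *FOXA2*, *HNF4A*, *AFP*, *TTR* and *RBP4* was found in 42 of 741 (5.67%) and 27 of 539 (5.01%) GATA6-gated cells and in 6.70% and 8.33% of the reference. Most GATA6-gated cells thus had no UMI of any of these 6 genes at this depth, although *DAB2* was present in 620 and 420 of them and *CUBN* in 98 and 55.

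In the ISG15 gate none of the 8 tested members passed edgeR's test in the main fit, which has no library block. Of all tested genes 2.27% were called in that fit, 1.44% as higher and 0.832% as lower. Unadjusted, edgeR's p was 0.00147 for *DAB2*, 0.0116 for *SOX17* and 0.0143 for *RBP4*. How many of all tested genes reach such values was not counted, so they are not a result about the members as a set. DESeq2 called *DAB2* and *RBP4*, and 766 of all 14763 genes to which it gave an adjusted p. It gave none to *SOX17*, *HNF4A* and *TTR*. *DAB2* had 62.7 and 63.3 CPM in the gate against 51.5 and 56.0 CPM, a log2 fold change of 0.30 ± 0.06 (adjusted p = 0.0567). Both gated sums lay above both reference sums. *RBP4* had 1.04 and 0.861 CPM against 1.82 and 3.07 CPM (-1.30 ± 0.42, adjusted p = 0.177), with both gated sums lower. *SOX17* was found in 0 of 393 and 0 of 420 gated cells, for which the exact intervals allow shares with a UMI of up to 0.934% and 0.874%. In the reference *SOX17* was found in 29 cells (0.467%) and 35 cells (0.486%), and single cells held up to 19 and 9 of its UMIs. Taken 1 library at a time, these shares lie under the limits that 0 cells allow.

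With the library as a block, 1374 genes in place of 379 were called in the ISG15 gate, and among them *DAB2* (adjusted p = 0.0137), *SOX17* (0.0170), *RBP4* (0.0211) and *AFP* (0.0211). *AFP* had 0 and 0.123 CPM in the gate against 0.306 and 2.86 CPM, and single cells held 44 of the 64 and 318 of the 662 *AFP* UMIs of the reference. *CUBN* (1.23 and 1.91 CPM against 1.91 and 1.52 CPM), *AMN* (1.81 and 1.23 against 1.40 and 1.47 CPM), *HNF4A* (0.130 and 0.431 against 0.559 and 0.414 CPM) and *TTR* (0.0648 and 0.246 against 0.277 and 1.01 CPM) passed in neither fit. *FOXA2* had 2 UMIs and 1 UMI. The gate itself carried the interferon genes, of which 7 of 7 tested rose, and beside them the lipoprotein genes *APOA1* (366 and 381 CPM against 188 and 187 CPM) and *APOC3* (22.6 and 18.2 against 9.21 and 8.19 CPM) rose, while *EOMES*, *FST* and the epiblast gene *SOX2* fell. No gene of the uptake, matrix, cardiac, fibroblast, endothelium, axial, epicardium or trophectoderm lists was called there. The pluripotency gene *POU5F1* had 31.2 and 37.8 CPM in the gate against 67.6 and 100 CPM (adjusted p = 0.0949).

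Gates on 8 other genes, which may overlap, showed in which cells each member stood highest. A gate on *SOX10* held only 12 and 17 cells, with at most 4 UMIs of *CUBN* and 1 of *AMN* in a library, and was not ranked, although its 9.96 CPM of *CUBN* in library 1 and 2.09 CPM of *AMN* in library 2 would have been highest. For 6 of the 9 members the highest of the 8 gates was the same in both libraries. *RBP4* was highest in cells with at least 5 *POU5F1* UMIs, at 4.56 and 5.69 CPM, and lowest in library 2 in *COL3A1*-gated cells, at 0.920 CPM. In the *POU5F1* gate 156 of 910 (17.1%) and 259 of 1429 (18.1%) cells had an *RBP4* UMI, and 2.75% and 4.62% after thinning, at a median of 43438 and 38778 UMIs. The level of *RBP4* there lies within the interval of its empty droplets in library 1 (1.34 to 7.96 CPM) and just above it in library 2 (0.939 to 5.57 CPM). *DAB2* was lowest in the *POU5F1* gate at 29.5 and 27.1 CPM and highest in the *COL3A1* gate at 131 and 149 CPM. *CUBN* was also highest in the *COL3A1* gate, at 5.42 and 4.83 CPM, followed by *MYL7*-gated cells at 4.07 and 4.19 CPM.

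*TTR* stood highest in cells with at least 20 UMIs of *GABRP*, a GABA receptor subunit, at 0.355 and 1.85 CPM, but in library 2 the *POU5F1* gate was close, at 1.73 CPM, and these values lie within the intervals of its empty droplets. *AMN* was also highest in the *GABRP* gate, at 1.70 and 2.03 CPM, within the interval of its empty droplets. *SOX17* was highest in the *CRABP1* gate, at 0.676 and 0.639 CPM from 4 cells in each library. *AFP* was highest in the *MYL7* gate in library 1 (0.313 CPM, 6 UMIs) and in the *POU5F1* gate in library 2 (2.22 CPM, 138 UMIs), and *HNF4A* and *FOXA2* also differed between the libraries. The order of the gates was not tested, and for these genes it rests on few UMIs.

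**Figure D4:**
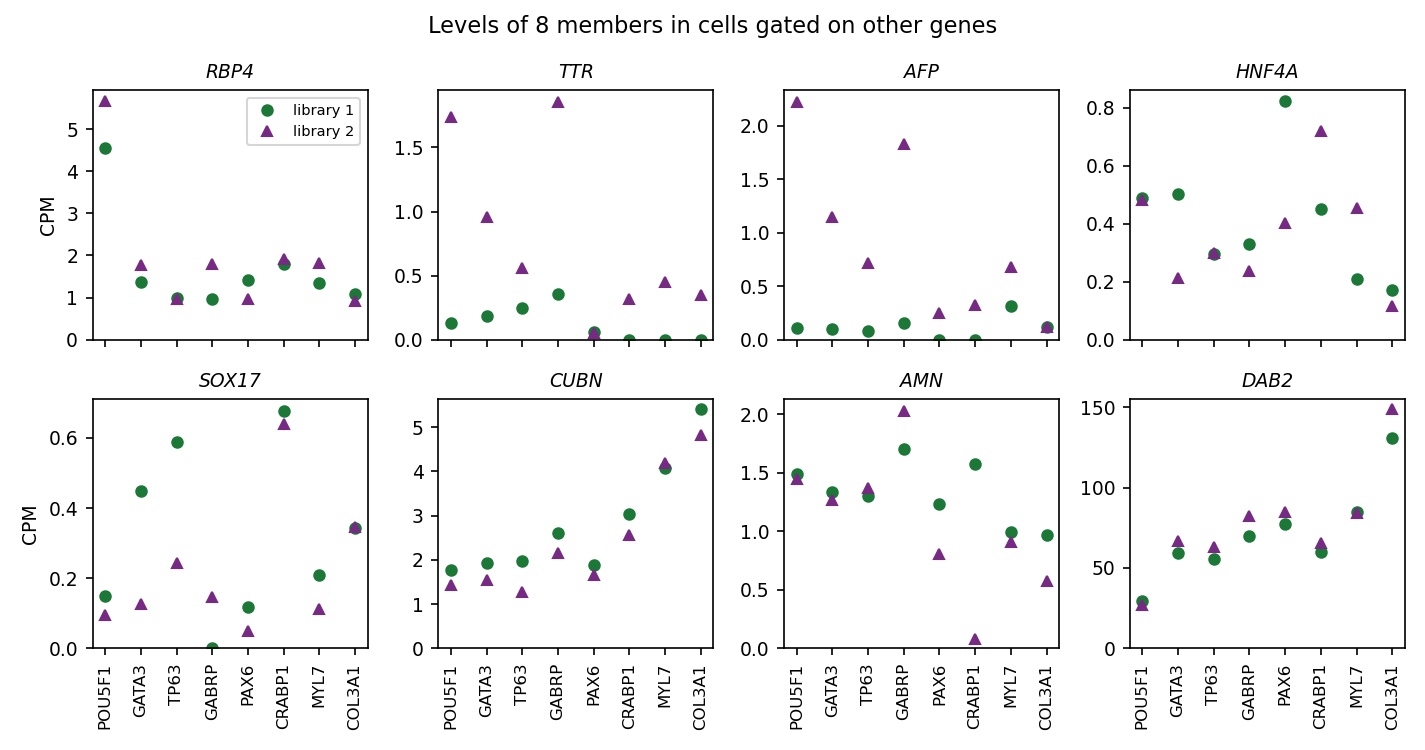
CPM of 8 members in cells gated on 8 other genes (at least 5 UMIs, or 20 for *GABRP*, *CRABP1* and *COL3A1*), with a circle for library 1 and a triangle for library 2 and an own scale from 0 for each member. *RBP4* peaks in the *POU5F1* gate at 4.56 and 5.69 CPM, and *DAB2* and *CUBN* peak in the *COL3A1* gate.

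The genes most like each member across cells were found by Pearson correlation of log2(1 + UMIs per 10000), ranked by the lower of the library values, for the 7 members with at least 30 positive cells in each library. All genes of a cell share its depth, and the values are descriptions. *TTR* and *RBP4* were each other's nearest gene, at 0.439 and 0.489, and *SERPINF2*, a plasma protease inhibitor, and *APOM* or *FABP1*, lipid carriers, followed. *HNF4A* was nearest to *RBP4* (0.260 and 0.348), then *TTR* and *PROC*, a plasma protease. Outside the *RBP4*-high cells, the 20 and 12 cells with at least 2 *HNF4A* UMIs had *RBP4* in 1 and 0 and *TTR* in 0. The correlations were not taken without the *RBP4*-high cells. *SOX17* was nearest to *SOST* (0.283 and 0.340) and *GAD1*. *DAB2* was nearest to *LHFPL2* (0.292 and 0.333), *HAND1*, a factor of heart and extra-embryonic mesoderm, and *CST3*. *CUBN* was nearest to *VIM*, the mesenchymal filament vimentin, at only 0.139 and 0.111, and *AMN* reached 0.0660 and 0.0664 with *SPINT2*, too weak to describe a pattern.

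In the pESCs the members were measured as FPKM, fragments per kilobase of transcript and per 1e+06 mapped fragments, added up per gene. The columns are IVFP25, PA_4P7 and PAP25 and are given in this order. The name of the first begins with IVF although the methods describe parthenogenetic pESCs. Bulk values cannot tell fewer cells of a type from less RNA per cell. *POU5F1*, the pluripotency factor, had 639, 506 and 432 FPKM. *FOXA2* had 13.2, 15.5 and 81.8 FPKM (36.8 ± 39.0, SD, n = 3 libraries), and *SOX17* had 1.73, 1.82 and 26.1 FPKM (9.88 ± 14.05). Both rested on PAP25, and the means of the other 2 libraries were 14.3 and 1.77 FPKM.

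*HNF4A* had 0.190, 0.403 and 2.47 FPKM and was thus also highest in PAP25. *RBP4* was even across the libraries, at 2.18, 3.30 and 2.97 FPKM (2.82 ± 0.58). *AFP* and *TTR* were listed at 0 in all 3 libraries, and *CUBN* at 0, 0 and 0.00489 FPKM. *AMN* had 0.598, 0.307 and 0.329 FPKM and *DAB2* 0.128, 0.139 and 0.613 FPKM. In order of level, *FOXA2* was the highest member in each library, and *SOX17* and *RBP4* changed places between PAP25 and the other 2.

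PAP25 stood apart for more genes of endoderm and axial mesoderm. In PAP25, *SOX17*, *FOXA2* and *HNF4A* were at least 5 times as high as in both other libraries, 3 of 9 members, where 0.862% of the 12291 genes with at least 1 FPKM in any library were, and the median ratio over those genes was 0.998. Of 9 endoderm transcription factors 4 did so, such as *GATA4* at 0.234, 0.252 and 5.99 FPKM and *LHX1* at 0.586, 0.790 and 12.9 FPKM. Of the axial mesoderm and floor plate list 3 of 6 did so, with *T* at 4.41, 3.09 and 40.6 FPKM and *CHRD*, a BMP antagonist of the node, at 19.4, 19.4 and 130 FPKM. *SHH*, of notochord and floor plate, had 5.70, 5.18 and 28.1 FPKM. Of the secreted proteins 1 of 15 and of the trophectoderm genes 1 of 6 did so, and no gene of the other lists. With 1 library there is no test, and the part that endoderm and that axial mesoderm take in the level of *FOXA2* was not tested.

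**Figure D5:**
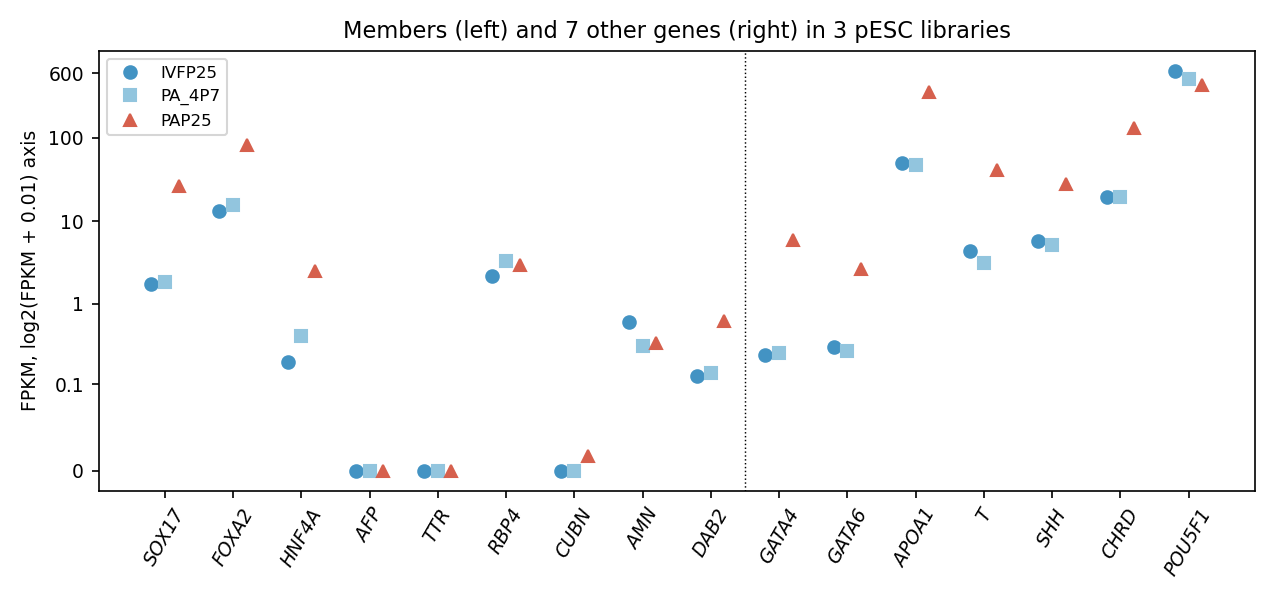
FPKM (log2(FPKM + 0.01) axis) of the 9 members and 7 other genes in the pESC libraries IVFP25 (circle), PA_4P7 (square) and PAP25 (triangle). *SOX17*, *FOXA2* and *HNF4A* are highest in PAP25, as are *GATA4*, *GATA6*, *APOA1*, *T*, *SHH* and *CHRD*, while *RBP4* and *POU5F1* are not.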

How the data were processed

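The 9 genes, the gates and the marker lists were chosen with earlier results of these data known. For scRNA-seq, the deposited matrices hold raw UMI counts of every barcode, which the authors made with Cell Ranger 7.1.0 on susScr11, and Seurat 4.3.0 is also named in the submitters' notes. For bulk RNA-seq, the authors used Trim Galore 0.6.4, HISAT2 2.2.1 and StringTie 2.2.1, and deposited FPKM per transcript without read counts, so the depth of these libraries is unknown. The FPKM columns name no sample number and were used as 3 libraries of 1 group.

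Cells were barcodes with many UMIs (at least 11223 in library 1, and in library 2 the lowest had 9807), without a mitochondrial filter. Scrublet's automatic limit marked 1 and 0 cells and so did not work, and in an alternative the 434 and 535 highest scores were removed. Sums per library and gate were tested with edgeR 4.0.16 in R 4.3.3 (filterByExpr, TMM, all 6 sums in 1 fit, 3 residual degrees of freedom, adjusted p under 0.05). On counts simulated for the GATA6 gate, 200 of 200 changed genes were recovered with 9 false calls among 16396 genes. Only genes with enough counts were changed, with the same spread for all genes and no library effect. This recovery therefore does not describe members with few counts or with most UMIs in single cells. Deviations of sums of the same library correlated at 0.157 to 0.328 over 16707 genes, so sums of 1 library are paired. The main fit leaves this pairing out. Blocking on the library was tried as an alternative, as was DESeq2 1.42.0. The named genes are the members, the gate genes, up to 4 genes of most UMIs from each of 13 marker lists and the 3 most correlated genes of a member, plus those said to be named after their values were seen. Promoter windows were read from Sscrofa11.1, and TBXT is annotated as *T*.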

Additional observations from a re-analysis of the deposited data

Results flagged for a closer look

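Barcodes of at least 1000 UMIs that lie under the limit for cells (3108 in library 1 and 3661 in library 2) entered no comparison. Of these, the 4 with more than 3 UMIs of *AFP*, *TTR* or *RBP4* were picked, and each held more than 3 of *RBP4* together with other endoderm genes. They are the highest of many barcodes, and their counts were not tested. In library 1, a barcode of 1290 UMIs held 6 UMIs of *RBP4*, 4 of *AFP*, 4 of *TTR* and 33 of *APOA1*, and a barcode of 1167 UMIs held 5 of *RBP4*, 10 of *APOA1* and 14 of *SERPINA1*. In library 2, a barcode of 7597 UMIs held 11 UMIs of *RBP4*, 4 of *TTR*, 1 of *AFP* and 159 of *SERPINA1*, and a barcode of 6235 UMIs held 7 of *RBP4*, 14 of *AFP*, 5 of *TTR*, 212 of *APOA1* and 1 of *HNF4A*. *SOX17*, *FOXA2*, *CUBN*, *AMN* and *DAB2* were at 0 in all 4.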

How the results depend on the processing

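Genes called in the GATA6 gate numbered 6331 and ranged from 5631 (DESeq2) to 7891 (library as a block) over the alternatives. In the ISG15 gate 379 were called, with 766 by DESeq2, 661 without the filter on low counts, 1374 with the library as a block, 210 with looser gates and 215 with cells thinned to 9000 UMIs, and the cause of these shifts was not tested. The block changed no other call of a member than those given above. Without 1 library no residual degrees of freedom remain, so no calls could be counted. In the GATA6 gate *DAB2* and *CUBN* stayed called in every fit with a test. Fold changes (log2) turned in sign there for *RBP4* (-0.19 with stricter gates, -0.17 without the *RBP4*-high cells), *HNF4A* (-0.36) and *TTR* (-0.59), the last 2 also without those cells. In the ISG15 gate they turned for *HNF4A* (0.26 with looser gates, 0.12 without library 1), *CUBN* (0.31 with looser gates, 0.049 with a reference of cells with 0 *GATA6* and under 5 *ISG15* UMIs, 0.40 without library 1) and *AMN* (-0.19 without library 1). Without library 2 these 3 genes stood at -1.86, -0.55 and 0.45. *DAB2* there passed with RLE factors (adjusted p = 0.0478), without the filter (0.0361), with DESeq2 (0.00504) and with the other reference (0.0343), and *TTR* passed in the GATA6 gate with that reference (0.00377). The share of cells with a UMI of the 8 members other than *DAB2* was 15.7% and became 15.8% with a mitochondrial filter, 15.0% without the highest doublet scores, 5.22% after thinning and 2.57% when 2 UMIs were asked, and ranged from 15.7% to 15.8% over single libraries. The pairs above their product, 22 of 36, became 10 at 2 UMIs, 14 after thinning and 14 without the *RBP4*-high cells, and 26 to 28 in single libraries. In pESCs 4 members reached a mean of 1 FPKM, 3 by the highest transcript alone and 3 to 4 with 1 library left out. Depth limits the low genes most, since *FOXA2* had 40 UMIs in all sums and without the filter gave 1.63 (adjusted p = 0.146) in the GATA6 gate. For all members but *DAB2* the level over all cells did not exceed the interval of that in empty droplets. For *SOX17*, *FOXA2* and *HNF4A* that interval rests on 1 UMI or 0 UMIs. It reaches 1.57 CPM or more, too wide to compare with their levels over all cells. For no gene does a level within the interval show that its UMIs in cells were free RNA. *ISG15*, with up to 229 and 430 UMIs in a cell, had 117 and 119 CPM over all cells and 151 and 135 CPM in empty droplets. A level over all cells also does not describe genes held by few cells, such as *AFP*.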
